A study of Rattus norvegicus with 3 samples.

Results

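The comparison set soft tissue around an implant against soft tissue of an extraction socket that had healed without an implant. It used 2 of the 3 arrays of the series, 1 for each tissue. Both tissues came from wild-type male Sprague-Dawley rats whose upper first molars had been extracted at 5 weeks of age. In the implant group (PICT, labelled peri-implant connective tissue) a titanium alloy implant was set in the socket at once. In the other group (OMCT, labelled oral mucosa connective tissue) the wound was left to close with no implant. Both tissues were collected 4 weeks after the extraction, at 9 weeks of age, so the extraction and the healing time were shared. The remaining array (PCT) holds periodontal connective tissue beside a natural upper first molar at 9 weeks of age, and its intensities are printed as a last value, as deposited and uncentred, with no difference computed from them. The design text once writes mice for PCT where the sample labels give rat. All tissue was cut out of sections by laser microdissection, and how many animals gave the RNA of an array is not stated there.

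Oral mucosa is a stratified squamous epithelium lying on connective tissue. Basal keratinocytes carry the keratins Krt5 and Krt14 and, as they move up, switch to Krt1 and Krt10, then to loricrin and other proteins of the cornified envelope, a barrier in which protease inhibitors, antimicrobial peptides and lipids are also laid down. Below it, fibroblasts fill a healing socket with collagen, proteoglycans and new vessels, under the control of ligands such as the BMPs, TGF-betas and Wnts and their secreted inhibitors, while neutrophils, macrophages and lymphocytes enter from the blood.

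Every gene named in the platform annotation by exactly 1 symbol was used, which gave 14217 genes, each read by its brightest probe set (a group of short probes summarised as 1 intensity). A difference is PICT minus OMCT in log2(intensity + 8.56) after the median of each array was subtracted, and a gene is called higher or lower at a difference of at least 1 (2-fold) when the brighter array lay at or above its own median probe set. The added constant shrinks the folds of dim genes. With 1 array a tissue there was no spread between animals and no test, so every count describes these 2 arrays. The spread that could be measured was technical: for the 4525 genes with several probe sets, the difference had an SD of 0.49 between probe sets of 1 gene, and 0.38 over the probe sets above the median level (2412 genes). The median intensity was 56.5 in PICT, 57.4 in OMCT and 34.3 in PCT. The ratio of 3' to 5' probe sets of Hk1, which grows as RNA is shortened, was 1.58 in PICT and 1.97 in OMCT, and that of Gapdh 1.12 and 1.20. The part of RNA length in any difference was not tested. Because each array measured a dissected area of mixed cells, fewer cells of a type and less RNA per cell cannot be told apart.

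By this rule 590 genes (4.15%) were higher and 634 (4.46%) lower, together 8.61%, around a median difference of -0.04 over all genes. Every list count below is to be read against these shares, and a count near them is not a result about the list. The counts were similar in size but the differences were not. Past 8-fold there were 72 higher and 18 lower genes, and past 16-fold 30 higher and 1 lower. Of the 160 genes at least 4-fold higher, 44 stood in lists of epithelial genes. Of the 103 genes at least 4-fold lower, 31 stood in lists of matrix, fibroblast and growth-signal genes. At 8-fold these were 34 of 72 and 8 of 18. Lists of epithelial genes held 151 measured genes, with 76 higher, 3 lower and a median of 1.12. Stromal lists held 414 genes, with 26 higher, 110 lower and a median of -0.43, and lists of vessels and nerve held 55 genes, with 1 higher, 19 lower and a median of -0.92.

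**Figure D1:**
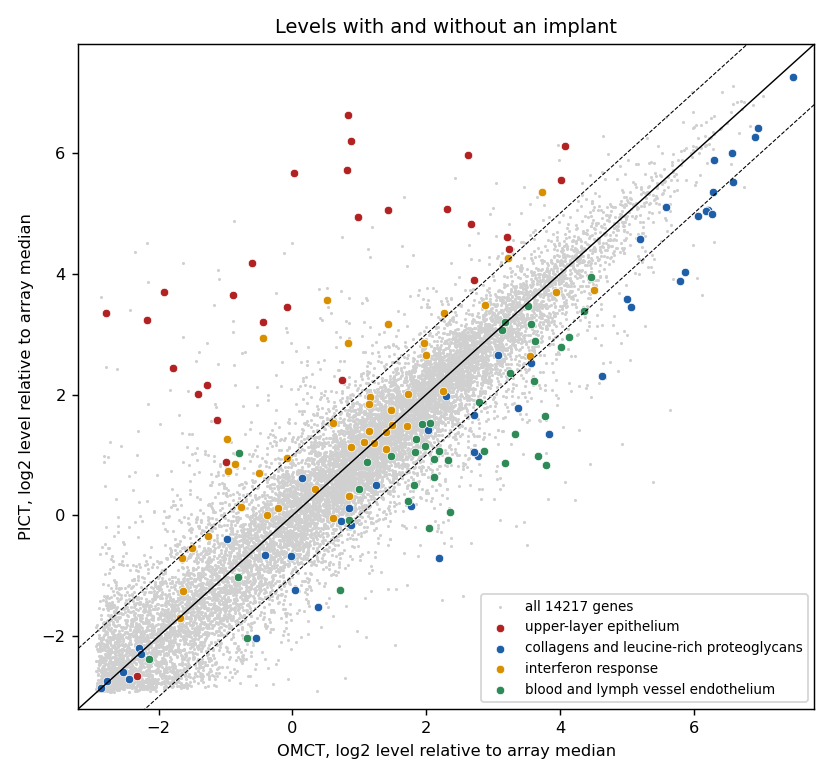
Each point is 1 of 14217 genes, with its log2 level relative to the array median in OMCT (x axis) and PICT (y axis); the solid line marks equal levels and the dashed lines 2-fold differences. Upper-layer epithelial genes (red) lie far above the diagonal, with 27 of 28 called higher, while collagens and leucine-rich proteoglycans (blue) and vessel genes (green) lie mostly below it.

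**Figure D2:**
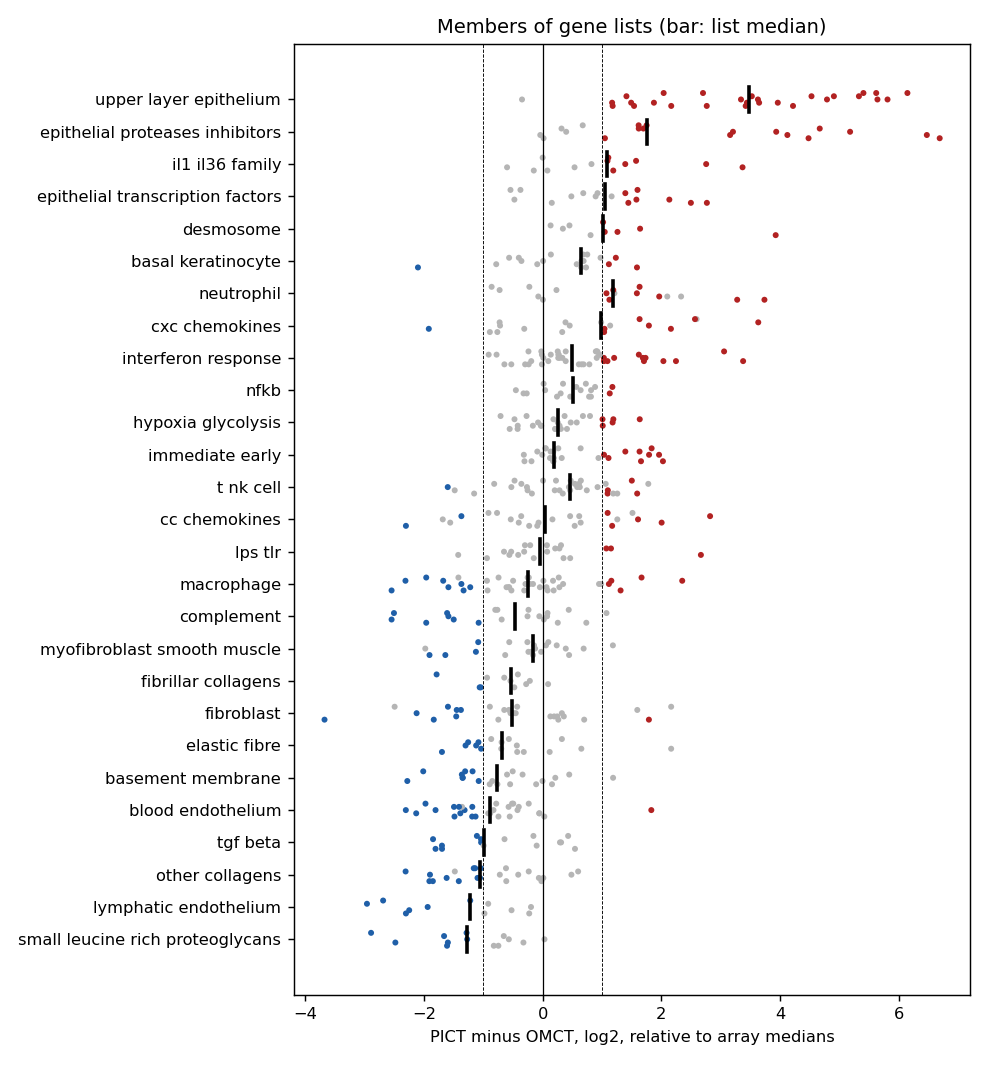
Each point is the difference of 1 list member, PICT minus OMCT in log2 relative to the array medians, in red where called higher, blue where called lower and grey where neither; the bar is the list median and the dashed lines mark 2-fold. The medians run from 3.48 for upper-layer epithelium to -1.27 for small leucine-rich proteoglycans.

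The outer layers of the epithelium gave the list with the highest median difference of the 68, also under each of the 10 alternatives tried. Of 28 measured upper-layer genes, 27 were higher in PICT and 0 lower, with a median of 3.48. Their summed intensity was 48412 in PICT, 5967 in OMCT and 40126 in PCT. The exception was Ivl (involucrin, an envelope protein), whose probe set stayed dim at 1.71 in PICT, 4.67 in OMCT and 8.1 in PCT. Sprr1b, a small proline-rich precursor of the cornified envelope, had an intensity of 3416 in PICT, 107 in OMCT and 2198 in PCT. Its sister gene Sprr1a stood at 1168 in PICT, 34.6 in OMCT and 1419 in PCT, and the differences were 4.9 and 4.79. Tgm1, the transglutaminase that cross-links these precursors, stood at 592 in PICT, 40.1 in OMCT and 569 in PCT, a difference of 3.65. Cdsn, the corneodesmosin that holds the cells of the cornified layer together, differed by 4.53, and Asprv1, the protease that trims filaggrin, by 4.22. For each of these genes PICT was far above OMCT.

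Further genes among the 25 largest differences, 8 of them in no list, lay in the same direction. C20h6orf15 had an intensity of 937 in PICT, 6.12 in OMCT and 525 in PCT (difference 6.03). Fmo2, a flavin-containing monooxygenase, stood at 674 in PICT, 3.63 in OMCT and 279 in PCT (5.83). Mal2, a membrane-trafficking protein of polarised epithelia, stood at 1886 in PICT, 27.6 in OMCT and 950.1 in PCT (5.73). Kprp, a proline-rich protein of keratinocytes, was at 349 in PICT and 0.991 in OMCT, below the highest negative control of that array (3.60), so PICT was at least 29.8-fold higher, taken against that control. Padi1, which converts arginine to citrulline in keratins, was likewise at least 55.5-fold higher (656 against 0.982). Endou, an endoribonuclease, differed by 4.58, and Aox4, an aldehyde oxidase, by 4.5, from intensities of 1465 in PICT, 57.4 in OMCT and 458 in PCT. OMCT lay below PICT for all 7. The unnamed loci LOC102549828 and LOC102552128 were also higher, the first by 5.81 and the second at least 29.2-fold, taken against the negative control in OMCT.

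Basal genes were called less often than upper-layer genes. Of 19 basal keratinocyte genes 3 were higher (15.8%) and 1 lower (5.26%), against 4.15% and 4.46% over all genes. Their median was 0.65, and their summed intensities were 43660.5, 37169 and 45975 in PICT, OMCT and PCT. Krt5 stood at 7965 in PICT, 8595 in OMCT and 9565 in PCT and Krt14 at 7491 in PICT, 6894 in OMCT and 8911 in PCT, differences of -0.09 and 0.14. Both arrays labelled connective tissue thus held epithelial RNA. Tp63, the transcription factor that maintains basal cells, had 1821 in PICT, 1141 in OMCT and 1099 in PCT, a difference of 0.69. Itga6 and Col17a1, which anchor basal cells to the basement membrane, were at 0.01 and -0.36, 2 genes outside the rule for named genes. The called basal genes were Cdh1 (E-cadherin, 1.59, with a second probe set at -0.38), Trim29 (1.23), Cdh3 (P-cadherin, 1.12) and, in the other direction, Krt15, a keratin of basal cells, which stood at 186 in PICT, 838 in OMCT and 951 in PCT. Krt17, a keratin of stressed or wounded epithelium, was higher in PICT at 1.03.

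**Figure D3:**
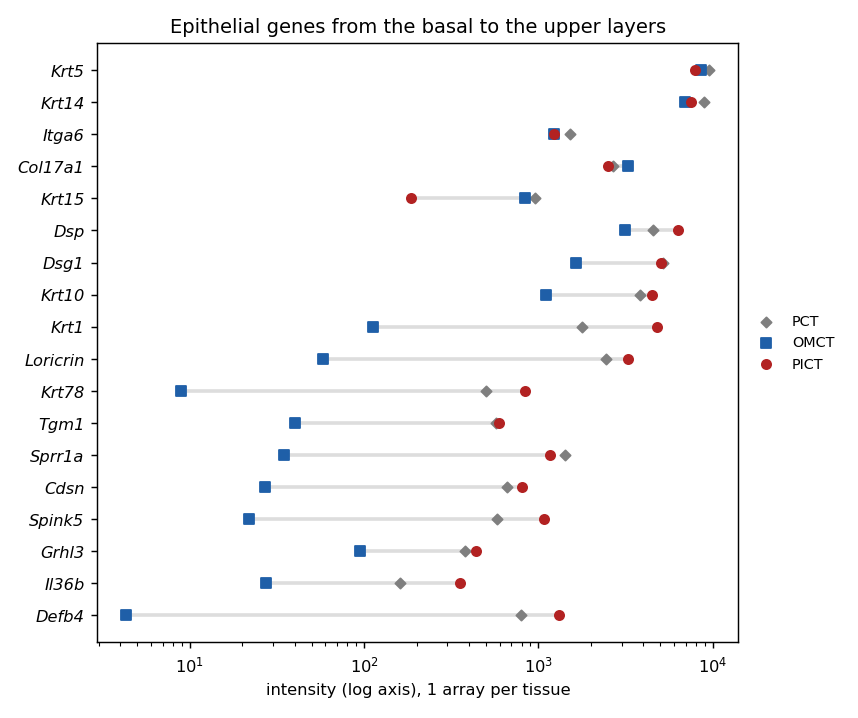
Intensity on a log axis of 18 epithelial genes on the 3 arrays (PICT red circles, OMCT blue squares, PCT grey diamonds), ordered from basal to upper layers, 1 array per tissue. From Krt1 down the list OMCT lies far below PICT, while Krt5, Krt14, Itga6 and Col17a1 nearly coincide in both and Krt15 is lower in PICT.

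Keratins of simple and junctional epithelium, the attachment epithelium beside teeth, went in both directions. Krt7 was higher beside the implant, at 226 in PICT, 6.25 in OMCT and 549.6 in PCT, a difference of 4.01. Krt19 was lower beside the implant, at 20.3 in PICT, 82.6 in OMCT and 603 in PCT, a difference of -1.64. Krt8 stood at 38.8 in PICT, 19 in OMCT and 15.4 in PCT (0.8) and was not called, and Krt18 at 6.65 in PICT, 11 in OMCT and 11.2 in PCT, under the negative control in PICT.

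Some junction genes were higher in PICT. In the desmosome list 5 of 9 were higher and 0 lower (median 1.02). The top member was Dsc1, the desmocollin of upper layers, at 525 in PICT, 27.1 in OMCT and 217 in PCT (3.92). Dsg1, the desmoglein cut by upper-layer proteases, stood at 5048 in PICT, 1635 in OMCT and 5172 in PCT (1.64), and Pkp1 and Dsp, which tie cadherins to keratin, differed by 1.26 and 1.02. Among tight and gap junction genes 4 of 14 were higher and 0 lower. They were the connexins Gjb6 (972 in PICT, 22.1 in OMCT and 467 in PCT, 5.02) and Gjb2 (2.17), the claudin Cldn4 (2.93) and occludin, Ocln (1.34). Cldn1 stood at 152 in PICT, 109.7 in OMCT and 251 in PCT and was not called. Of 12 enzymes of barrier lipids 3 were higher and 0 lower. They were Acer1 (alkaline ceramidase, 3.61), Aloxe3 (epidermal lipoxygenase, 3.5) and Ugcg (glucosylceramide synthase, 1.14).

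Proteases of the upper layers and the inhibitors that restrain them were mostly higher. Of 19 members 14 were higher and 0 lower (median 1.75). Spink5 (LEKTI, the inhibitor of kallikreins) had an intensity of 1080.1 in PICT, 21.9 in OMCT and 576 in PCT and a difference of 5.18. Serpinb12 stood at 721 in PICT, 20.6 in OMCT and 118 in PCT (4.67). Klk10, a kallikrein, differed by 4.12, Slpi (an inhibitor of neutrophil elastase) by 3.16 and St14 (matriptase) by 1.05. Serpinb3 stood at 1315 in PICT, 51.7 in OMCT and 23.9 in PCT (4.48), and Stfa3, a stefin that inhibits cathepsins, at 783 in PICT, 0.495 in OMCT and 28.3 in PCT, or at least 66-fold above OMCT in PICT. The other probe set of Stfa3 gave -0.04, so its rise rests on 1 probe set of a family of near-identical stefins, whose signal the probes may not separate.

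Some regulators of keratinocyte differentiation were higher. Of 16 factors 7 were higher and 0 lower (median 1.04). The grainyhead factors Grhl1 and Grhl3 stood at 653 in PICT, 90.0 in OMCT and 377 in PCT (2.77) and at 439.9 in PICT, 95 in OMCT and 381 in PCT (2.13). Znf750, which acts with Klf4 in late differentiation, differed by 2.5, Klf4 itself by 1.39, Klf5 by 1.6, Ehf by 1.58 and Cebpa by 1.44. Elf3 was dim at 41.6 and 14.2 in PICT and OMCT and was not called.

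Of the IL-1 and IL-36 family, 7 of 13 were higher and 0 lower (median 1.09). The ligand Il36b stood at 357 in PICT, 27.4 in OMCT and 160.1 in PCT (3.37) and its antagonist Il36rn at 780.4 in PICT, 110.0 in OMCT and 475 in PCT (2.75), so ligand and antagonist of the same receptor were both higher in PICT. Il1b, a cytokine of activated myeloid cells, was higher at 1216 in PICT, 408 in OMCT and 188 in PCT (1.57). Il1rn, the antagonist of the IL-1 receptor, differed by 1.11 and Il1r2, the decoy receptor, by 1.19, while Il1a was at 0.82 and not called. Il1rl1, the IL-33 receptor, was called at 1.39, but its other probe set gave -1.46 and the mean of both -0.03. Antimicrobial genes held 4 higher and 1 lower of 15. Defb4, a beta-defensin, stood at 1318 in PICT, 4.32 in OMCT and 789.8 in PCT, a difference of 6.71. Rnase4, a secreted ribonuclease, was lower at -1.18, and Lcn2 (lipocalin 2), dim at 21.4 and 46.5, was at -0.86.

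The series title names Lbp and Sod3. Lbp, which passes lipopolysaccharide on to the receptor complex of Tlr4, stood at 419 in PICT, 59.8 in OMCT and 22.4 in PCT, a difference of 2.67 from its only probe set. Sod3, the extracellular superoxide dismutase, stood at 19.4 in PICT, 169 in OMCT and 75.2 in PCT (-2.65), also from 1 probe set. The genes that act around them did not move as a group. In the lipopolysaccharide and Toll-like receptor list 3 of 20 were higher and 0 lower, with a median of -0.04. The receptor Tlr4 stood at 68.4 in PICT, 77.9 in OMCT and 38.8 in PCT (-0.15), its partner Ly96 at 248 in PICT, 367 in OMCT and 84.7 in PCT (-0.53) and the co-receptor Cd14 at 200.05 in PICT, 396 in OMCT and 80.7 in PCT (-0.94), none of them called. Besides Lbp, the called members were Irak2 (1.15) and Tlr1 (1.07). Of 18 NF-kB genes 2 were higher and 0 lower (median 0.52). They were the feedback inhibitor Tnfaip3 (1.18) and the survival factor Birc3 (1.13). Nfkbia, another feedback gene, was at 0.57, Rela at 0.3 and Nfkb1 at -0.27.

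Among enzymes that remove superoxide and peroxide, 0 of 16 were higher and 4 lower (median -0.37). Sod1, in the cytosol, stood at 1218 in PICT, 1569 in OMCT and 1573 in PCT (-0.34), Sod2, in mitochondria, at 1066 in PICT, 774 in OMCT and 409 in PCT (0.48) and catalase, Cat, at 457 in PICT, 629.9 in OMCT and 335 in PCT (-0.44). The 4 lower enzymes are secreted or act in the endoplasmic reticulum. Beside Sod3 these were Gpx3, the plasma glutathione peroxidase, at 332 in PICT, 1907 in OMCT and 755 in PCT (-2.47), and the reticulum peroxidases Gpx7 (-2.88) and Gpx8 (-1.01). In the Nrf2 and thioredoxin list 2 of 35 were higher (5.71%) and 1 lower (2.86%), near the 4.15% and 4.46% over all genes (median 0.11). Hmox1, which breaks down heme, stood at 510.0 in PICT, 154 in OMCT and 60.1 in PCT (1.7) and the cystine carrier Slc7a11 at 401 in PICT, 194 in OMCT and 1333 in PCT (1.03). Nqo1, Gclc and Txnrd1, textbook Nrf2 targets, were at 0.18, 0.16 and 0.67, none of them called. The other probe sets of Gclc and Txnrd1 gave 0.83 and 0.88. Srxn1, of the same list, stood at 481 in PICT, 243 in OMCT and 288 in PCT (0.98), just short of the 2-fold rule. Its other probe sets gave 1.3 and, for a dim one, -0.12. Subunits of the phagocyte NADPH oxidase, Cybb (1948 in PICT, 2077 in OMCT and 80.4 in PCT, other probe set 0.46) and Cyba (568 in PICT, 574 in OMCT and 123 in PCT), differed by -0.07 and 0.01, and Nox4, an oxidase of mesenchymal cells, was lower at -1.24. The iron list held 3 higher and 1 lower of 19. The importer Tfrc (1.3) and the heme-synthesis enzyme Alas1 (1.27) were higher, while the iron exporter Slc40a1 (ferroportin) was lower at 71 in PICT, 318 in OMCT and 37.6 in PCT (-2.02).

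Interferon-stimulated genes were higher in PICT in a sizeable minority and lower in none. Of 44 measured members 12 were higher and 0 lower, a median of 0.50. Mx1, which blocks viral nucleocapsids, stood at 489 in PICT, 40.0 in OMCT and 27.8 in PCT (3.38) and Isg15, a ubiquitin-like modifier, at 763 in PICT, 85.5 in OMCT and 73.2 in PCT (3.06). Usp18, which removes Isg15 from proteins, stood at 575 in PICT, 169 in OMCT and 107 in PCT (1.73), Cmpk2, a mitochondrial nucleotide kinase, at 109 in PICT, 27.9 in OMCT and 25.4 in PCT (1.71) and Irf7, the factor that sustains interferon production, at 654 in PICT, 307 in OMCT and 105 in PCT (1.09). PICT was more than 2-fold above OMCT for each of these 5. Ifit1 was dim, at 18.8 in PICT, 12.6 in OMCT and 8.98 in PCT, and not called. No interferon gene measured was called: Ifnb1 stood at 10.6 and 17.7 and Ifng at 2.57 and 7.69 in PICT and OMCT, and the 6 probe sets of the receptor chain Ifnar1 ran from -0.67 for the brightest to 0.76, 5 of them above 0. Of 21 genes of class I presentation 2 were higher, Nlrc5, the class I transactivator (1.66), and Psmb9, an immunoproteasome subunit (1.22). RT1-N3 was lower (-1.02), and B2m (0.05) and Tap1 (0.45) were not called.

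Promoters of these genes are shown because they are the place where the interferon-activated factor ISGF3 and the IRF family bind. The motif searched was GAAANNGAAA, on both strands (TTTCNNTTTC on the other), in 300 bases from 250 before to 50 after the start site of RefSeq genes on build GRCr8. It was present in 1034 of all 27457 promoters (3.77%), in 350 of 11700 promoters of measured genes (2.99%) and in 22 of the 33 interferon-list promoters that could be matched (66.7%). The share was 5 of 8 for members called higher and 17 of 25 for members not called. The other 4 of the 12 called members, Isg15 and Usp18 among them, were not matched to a promoter and are in neither share. Bst2 and Ifi27, with 2 matches each, had differences of -0.53 and -0.77, and Mx1 and Cmpk2, called higher, had none in this window. A match is a run of letters, not a site of binding. The 250 bases before the start site of 3 called members that hold the motif are printed 5' to 3' on the gene's strand, with matches in capitals: Rsad2 (viperin; chr6:48788121-48788370, minus strand), Ifit3 (chr1:241527076-241527325, plus strand) and Ifi44l (chr2:243328473-243328722, plus strand).
Rsad2: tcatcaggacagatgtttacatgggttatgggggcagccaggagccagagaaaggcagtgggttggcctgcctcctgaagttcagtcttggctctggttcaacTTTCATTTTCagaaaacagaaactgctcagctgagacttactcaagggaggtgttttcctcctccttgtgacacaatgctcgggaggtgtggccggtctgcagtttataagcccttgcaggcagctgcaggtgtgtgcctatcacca
Ifit3: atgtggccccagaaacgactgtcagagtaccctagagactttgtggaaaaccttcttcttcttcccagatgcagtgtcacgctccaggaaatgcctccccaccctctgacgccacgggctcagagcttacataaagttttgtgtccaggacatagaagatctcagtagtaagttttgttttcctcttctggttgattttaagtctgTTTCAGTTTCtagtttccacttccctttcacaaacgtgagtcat
Ifi44l: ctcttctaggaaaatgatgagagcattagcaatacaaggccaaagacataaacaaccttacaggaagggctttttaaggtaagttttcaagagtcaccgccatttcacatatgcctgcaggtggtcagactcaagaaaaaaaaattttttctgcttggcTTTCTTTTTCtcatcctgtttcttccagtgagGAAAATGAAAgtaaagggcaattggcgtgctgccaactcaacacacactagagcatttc
In Rsad2 and Ifit3 the capitals mark 1 match each, read on the opposite strand, and in Ifi44l 2 matches, 1 on each strand. Rsad2 stood at 147 in PICT, 24.7 in OMCT and 37.7 in PCT (2.25), Ifit3 at 463 in PICT, 108 in OMCT and 73.3 in PCT (2.03) and Ifi44l at 97.3 in PICT, 38 in OMCT and 33.5 in PCT (1.2), PICT being the high array for each. Bst2, Ifi27 and Ifi44l are outside the rule for named genes and were chosen after their values were seen.

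Chemokines of the CXC group were higher in 7 of 19 and lower in 1 (median 0.99), counting their receptors. Cxcl10, an interferon-induced attractant of T cells, stood at 264 in PICT, 13.7 in OMCT and 21.7 in PCT (3.63). The neutrophil attractants Cxcl2 and Cxcl6 stood at 315 in PICT, 46.8 in OMCT and 40.4 in PCT (2.57) and at 180.3 in PICT, 34.3 in OMCT and 28.8 in PCT (2.16), and their receptor Cxcr2 at 449.9 in PICT, 141 in OMCT and 189 in PCT (1.63). In all 4 PICT was above OMCT. Cxcl1, of the same group, was at 0.46 and not called. Cxcl14, made by epithelium and fibroblasts, was called at 1.79, with a second probe set at -0.21. The single lower member was Cxcl13, the attractant of B cells, at 528 in PICT, 2045 in OMCT and 164 in PCT (-1.92). Cxcl12, a stromal attractant, was at -0.89.

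CC chemokines and receptors held 5 higher and 2 lower of 24, with a median of 0.05. Ccl6 stood at 1423 in PICT, 197 in OMCT and 629 in PCT (2.82) and Ccr1, a receptor of myeloid cells, at 339.8 in PICT, 79.5 in OMCT and 33.9 in PCT (2.0). Ccrl2, Ccl3 and Ccl20 differed by 1.61, 1.17 and 1.1. The monocyte attractant Ccl2 was not called, at 298 in PICT, 391 in OMCT and 26.7 in PCT (-0.36), and its receptor Ccr2 was lower at 106 in PICT, 292 in OMCT and 37.3 in PCT (-1.37). Ccl21, which guides cells into lymph vessels, was lower too, at 110.4 in PICT, 586 in OMCT and 72.7 in PCT (-2.3). Among 37 other cytokines and receptors 2 were higher and 2 lower (5.41% each), near the 4.15% and 4.46% over all genes. Osm (oncostatin M, a cytokine of neutrophils and macrophages) stood at 276 in PICT, 37.3 in OMCT and 36.7 in PCT (2.65), the IL-17 receptor chain Il17ra differed by 1.04, and Il6 and Tnf were dim, at 23.5 and 10.4 and 42.8 and 25.6 in PICT and OMCT.

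Neutrophil genes were higher in 8 of 17 and lower in 0 (median 1.19), but several of them are also made by keratinocytes. S100a8 stood at 1376 in PICT, 136 in OMCT and 321 in PCT (3.28) and S100a9 at 2794 in PICT, 720.1 in OMCT and 157 in PCT (1.96). With the genes taken as also made by epithelium left out, 3 of 8 were higher and 0 lower. Their list median of 0.65 was level with the basal keratinocyte median. The higher genes were Cxcr2, Bcl2a1 and Csf3r. Cxcr2 stood at 449.9 in PICT, 141 in OMCT and 189 in PCT (1.63). Bcl2a1 (a survival factor) stood at 485 in PICT, 221 in OMCT and 17.5 in PCT (1.13). Csf3r (the G-CSF receptor) stood at 70.5 in PICT, 29.5 in OMCT and 8.69 in PCT (1.08). The granule gene Camp was dim and not called, at 39.4 in PICT, 2.79 in OMCT and 1.64 in PCT, with OMCT under its negative control and PICT at least 4-fold above that control. The part of the upper-layer gap in the S100 genes and in Cxcr2 was not tested.

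Macrophage genes split. The list as a whole counted 5 higher and 8 lower of 39 (median -0.25), with summed intensities of 27779 in PICT, 31949 in OMCT and 5540.3 in PCT. Genes that most macrophages carry were not called. Csf1r (the growth factor receptor) stood at 325 in PICT, 494 in OMCT and 33.5 in PCT, Cd68 (a lysosomal protein) at 116 in PICT, 184 in OMCT and 17.4 in PCT and Mrc1 (the mannose receptor) at 464 in PICT, 699 in OMCT and 18.1 in PCT. Tyrobp, a signalling adaptor named after its value was seen, was at 0.18. Higher in PICT were Arg1 (arginase 1, 585 in PICT, 109 in OMCT and 149 in PCT, 2.35), Clec7a (dectin-1, 876 in PICT, 274 in OMCT and 36.5 in PCT, 1.67), Plin2 (a lipid droplet coat, 451 in PICT, 179 in OMCT and 29.2 in PCT, 1.31), Fcgr3a (1.16) and Trem2 (1.12). Arg1 is also made by keratinocytes. The other probe sets of Plin2 and Trem2 gave 0.57 and 0.31, short of the 2-fold rule. Lower in PICT were Ms4a7 (99.3 in PICT, 533 in OMCT and 19.7 in PCT, -2.31), Cx3cr1, the fractalkine receptor of resident cells (90.7 in PICT, 312 in OMCT and 36 in PCT, -1.67), and the chains of complement C1q. C1qa, C1qb and C1qc differed by -1.96, -2.54 and -1.59.

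Complement genes as a list were lower in 7 of 20 and higher in 0 (median -0.47). Besides C1q these included the protease C1r (234 in PICT, 739 in OMCT and 182 in PCT, -1.61), the lectin-pathway protease Masp1 (243 in PICT, 1437 in OMCT and 141 in PCT, -2.5) and the collectin Colec12 (-1.5). C3, the central component, was dim at 53.1 in PICT, 29 in OMCT and 116 in PCT and not called.

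Lymphocyte genes were mostly dim. Of 33 T and NK cell genes 4 were higher and 1 lower (median 0.46). Cd8a stood at 103 in PICT, 31.4 in OMCT and 0.407 in PCT (1.5), with its other probe sets dim and at 0.29 and 0.04. Il2rb (1.59), Il7r (1.1) and Klrk1 (1.09) were also higher. The T cell receptor chains Cd3d, Cd3e and Cd3g were at 0.47, -0.18 (other probe set 0.64) and 0.74 and not called. Cd4, which rat macrophages also carry, was lower at 157 in PICT, 498 in OMCT and 29.2 in PCT (-1.6). B and plasma cell genes held 0 higher and 0 lower of 13, with Ms4a1 (CD20) at 4.71 in PICT, 3.14 in OMCT and 2.12 in PCT. Mast cell genes held 1 higher, Srgn (1.11), of 16 (6.25%, against 4.15% over all genes). Their defining proteases were near background (Cma1 at 1.85 and 1.88). Of 19 class II and dendritic genes RT1-Bb was higher (1.45, other probe set -1.34), RT1-Ba and RT1-DMa were lower (-1.11, with other probe sets from -2.26 to 0.21, and -1.16), and Cd74, the invariant chain, stood at 1009 in PICT, 1586 in OMCT and 569 in PCT (-0.63).

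**Figure D4:**
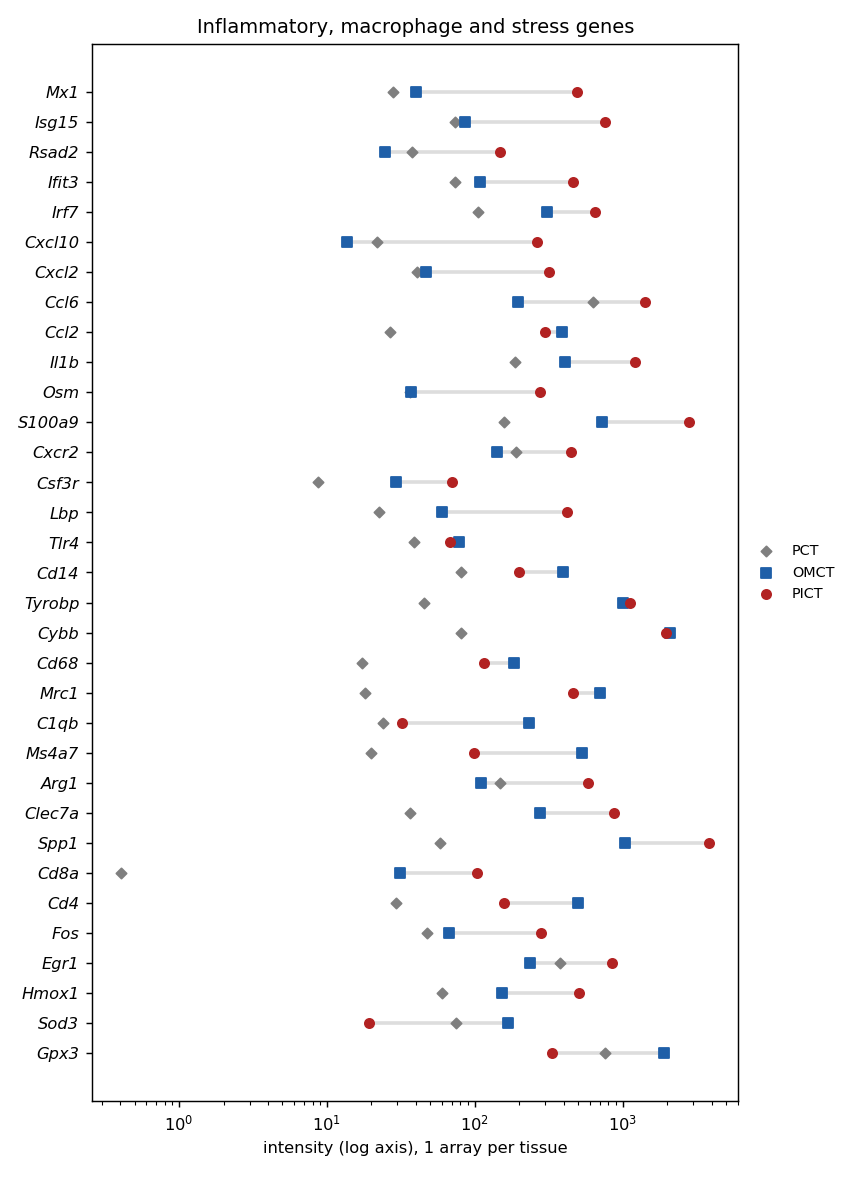
Intensity on a log axis of 33 inflammatory, macrophage and stress genes on the 3 arrays (PICT red circles, OMCT blue squares, PCT grey diamonds), 1 array per tissue. PICT lies above OMCT for the interferon genes, Cxcl10, Cxcl2, Osm and Lbp, while Cybb, Tyrobp and Tlr4 nearly coincide in PICT and OMCT and C1qb, Ms4a7, Cd4, Sod3 and Gpx3 are higher in OMCT.

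Immediate early genes, which are switched on within minutes of a stimulus, were higher in 9 of 27 and lower in 0, although the list median was 0.19. Atf3 stood at 277 in PICT, 62.6 in OMCT and 65.9 in PCT (2.03), Egr1 at 851 in PICT, 236 in OMCT and 376 in PCT (1.84) and Dusp5, a phosphatase that restrains ERK, at 179.9 in PICT, 46.6 in OMCT and 95.8 in PCT (1.79). Egr2 and Fosb differed by 1.66 and 1.63, with a second, dim probe set of Egr2 at 0.07. Fos was called at 1.96 from intensities of 281 in PICT, 66.8 in OMCT and 47.5 in PCT, with a second probe set at -0.03, and Jun was at 0.13. Of 27 hypoxia and glycolysis genes 5 were higher and 0 lower. They included Slc16a3, the lactate exporter (773 in PICT, 246 in OMCT and 96.5 in PCT, 1.64), Bnip3 (1.19), Pdk1 (1.18, other probe set 0.39), Egln3 (1.01) and Vegfa (1.01). Hif1a (0.26), Ldha (0.41) and Pgk1 (0.57, lowest probe set -0.46) were not called. The heat shock and endoplasmic reticulum list was close to level (median 0.04), with Hspb1, a small heat shock protein of keratinocytes and other cells, at 1.17, Trib3 at 1.27 and the chaperone Hspa5 at -0.15.

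Proliferation genes were called at a share near that over all genes. Of 43 cell cycle genes 1 was higher (2.33%) and 2 were lower (4.65%), against 4.15% and 4.46% over all genes. Their median was -0.31. Mki67 stood at 591 in PICT, 555 in OMCT and 445 in PCT (0.11), Top2a at 518 in PICT, 476 in OMCT and 521 in PCT (0.14) and Pcna at 760.0 in PICT, 1249 in OMCT and 508 in PCT (-0.69). The called members were the inhibitor Cdkn2b, higher at 1.65, the inhibitor Cdkn1c, lower at -1.46, and the helicase subunit Mcm6, lower at -1.41.

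Lipid genes were higher in 4 of 25 and lower in 0 (median 0.01). Dgat2, which makes triglyceride, stood at 1278 in PICT, 220.4 in OMCT and 649 in PCT (2.51). Fabp4, a fatty acid carrier of fat cells, macrophages and capillaries, stood at 275 in PICT, 74.2 in OMCT and 10.2 in PCT (1.8) and the fatty acid receptor Cd36 differed by 1.41, while the fat cell genes Adipoq and Plin1 were near background (1.86 and 5.92, and 5.37 and 11). Of the prostaglandin and leukotriene genes 3 of 23 were higher and 2 lower. Alox12, a lipoxygenase, stood at 524 in PICT, 53.9 in OMCT and 1197 in PCT (3.11), and Hpgd, which inactivates prostaglandins, and Tbxas1, thromboxane synthase, differed by 1.73 and 1.11. The constitutive cyclooxygenase Ptgs1 was lower at 245 in PICT, 592 in OMCT and 85 in PCT (-1.22), the secreted phospholipase Pla2g2a was lower at 507 in PICT, 2099.7 in OMCT and 301 in PCT (-2.01), and the inducible Ptgs2 was at 0.43.

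Clock and glucocorticoid genes were called in both directions, 4 higher and 4 lower of 20. The repressors Per2 (74 in PICT, 25.8 in OMCT and 12.6 in PCT, 1.28) and Cry1 (1.01) and the factor Nfil3 (1.27) were higher. Nr1d1 (18.8 in PICT, 141 in OMCT and 43.1 in PCT, -2.43), Nr1d2 (-1.02) and Dbp (-1.32) were lower. Cry2 was called at 1.02, but its other probe set, the brighter over PICT and OMCT alone, gave -0.04. Nfil3 and Dbp oscillate in opposite phase in many tissues, and the hour of collection is not given in these sources. Hsd11b1, which regenerates active glucocorticoid, was lower at 404 in PICT, 1038 in OMCT and 39.1 in PCT (-1.32), and the glucocorticoid target Tsc22d3 was at -0.14.

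A part of the connective tissue matrix was lower in PICT. Of 11 fibrillar collagens 0 were higher and 3 lower (median -0.54). Col1a1 stood at 5552 in PICT, 8189 in OMCT and 6651 in PCT (-0.54), Col1a2 at 4977 in PICT, 7899 in OMCT and 4184 in PCT (-0.65) and Col3a1 at 9967 in PICT, 11728 in OMCT and 7496 in PCT (-0.21). None of these main chains was called. Minor fibrillar chains were called, with Col24a1 at 120.1 in PICT, 441 in OMCT and 16.3 in PCT (-1.78), Col27a1 at -1.06 and Col5a3 at -1.04. Of 22 other collagens 0 were higher and 11 lower (median -1.05). Col4a2, of basement membranes, stood at 1046 in PICT, 3839.9 in OMCT and 793 in PCT (-1.85) and Col18a1, the source of endostatin, at 700.01 in PICT, 2193 in OMCT and 673 in PCT (-1.62). Col6a2 and Col7a1 (the anchoring fibril) differed by -1.91 and -2.31, and Col23a1 by -1.9.

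Enzymes that modify and cross-link collagen counted 0 higher and 7 lower of 21 (median -0.94). P3h4, a partner of lysyl hydroxylase, stood at 104 in PICT, 392 in OMCT and 70.1 in PCT (-1.81), and Fkbp10, a collagen chaperone, at 227 in PICT, 645 in OMCT and 88.3 in PCT (-1.45). Among the lysyl oxidases, Loxl2 was at -2.15 and Loxl1 at -1.31. Lox itself stood at 2316 in PICT, 3295 in OMCT and 488 in PCT (-0.49) and was not called, but its other probe set gave -1.3. The collagen chaperone Serpinh1 (Hsp47) was at -0.99, just under the 2-fold rule. Small leucine-rich proteoglycans, which coat collagen fibrils, counted 7 lower and 0 higher of 13 and had a median of -1.27, which was -0.66 with an added constant at the median of all values in place of 8.56. Omd (osteomodulin) stood at 31.3 in PICT, 291 in OMCT and 71.8 in PCT (-2.89), Ogn (osteoglycin) at 126 in PICT, 424 in OMCT and 100.05 in PCT (-1.66), Fmod (fibromodulin) at 215 in PICT, 676 in OMCT and 256 in PCT (-1.59) and Dcn (decorin) at 2054 in PICT, 5069 in OMCT and 1355 in PCT (-1.28). Lum (lumican) was at -0.57 and not called.

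Matricellular proteins, which signal to cells from the matrix, counted 2 higher and 9 lower of 22. Tnc (tenascin C) stood at 379 in PICT, 2159 in OMCT and 67.2 in PCT (-2.46), Spon2 (a spondin) at 304 in PICT, 1663 in OMCT and 359 in PCT (-2.4) and Thbs2 (thrombospondin 2) at 394 in PICT, 1223 in OMCT and 92.3 in PCT (-1.59). Thbs4, a thrombospondin of tendon and ligament, differed by -1.66. Spp1 (osteopontin) was higher at 3839.8 in PICT, 1035 in OMCT and 58.5 in PCT (1.9) and Ccn2 (connective tissue growth factor) at 1612 in PICT, 765 in OMCT and 458 in PCT (1.09). Fn1 (fibronectin) was at 0.33 and Postn (periostin) at -0.35, neither called. Elastic fibre genes counted 0 higher and 6 lower of 17, with Fbn1 (fibrillin 1) at 1108 in PICT, 2690.1 in OMCT and 905 in PCT (-1.25), Ltbp1, which stores latent TGF-beta on fibrillin, at 267 in PICT, 894 in OMCT and 429 in PCT (-1.69), and Eln (elastin) at -1.3, its other probe set being at 0.93. In the basement membrane list 0 were higher and 8 lower of 21, with Lama2 at 272 in PICT, 1369.9 in OMCT and 286 in PCT (-2.28), Itga8 (an integrin receptor chain) at -2.01, Hspg2 (perlecan) at -1.36 and Lamc1 at -1.08. Lama4 was called at -1.34, but its other probe set gave 1.44 and the mean of both 0.05. Of 14 hyaluronan genes the synthase Has2 was higher at 757 in PICT, 259 in OMCT and 246 in PCT (1.53), while Cemip, which degrades hyaluronan, was lower at 69.5 in PICT, 457 in OMCT and 22.1 in PCT (-2.56), as was Acan (aggrecan, -1.67). The receptor Cd44 was at -0.13 and 0.37 by its 2 probe sets.

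Proteases of the matrix split by family member. Of 34 genes 3 were higher and 7 lower (median -0.10). Mmp11 (stromelysin 3, a product of remodelling fibroblasts) stood at 87.1 in PICT, 2740.2 in OMCT and 112 in PCT, a difference of -4.82. Mmp13 (collagenase 3) stood at 2793 in PICT, 7086 in OMCT and 53.9 in PCT (-1.32), Mmp2 (gelatinase A) at 1481 in PICT, 5209.6 in OMCT and 1299 in PCT (-1.79), Mmp10 at 52.5 in PICT, 279 in OMCT and 11.1 in PCT (-2.22) and Adamts12 at 83.3 in PICT, 572 in OMCT and 9.3 in PCT (-2.64). Higher in PICT were Mmp9 (gelatinase B of neutrophils and macrophages) at 1836 in PICT, 614 in OMCT and 166 in PCT (1.59), Mmp7 (matrilysin, 1.72) and Adamts16, at 93.5 against 3.57, below the negative control, so at least 8.51-fold. Mmp14 and Mmp3 were at -0.87 and -0.52 and not called, but the other probe set of Mmp14 gave -1.28. Of the inhibitors, Timp1, Timp2 and Timp3 were at 0.57, -0.9 and -0.06. The other probe set of Timp2 gave -2.19, and those of Timp3 ran from -1.14 to 0.16. Reck was lower at -1.29 and Serpinf1 (PEDF) at 264 in PICT, 1175 in OMCT and 223 in PCT (-2.1). A2m (alpha-2-macroglobulin) was higher at 181 in PICT, 54.6 in OMCT and 9.05 in PCT (1.61).

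Markers of the cells that make this matrix were called in a minority. Of 26 fibroblast genes 1 was higher and 7 were lower (median -0.51), with summed intensities of 27138 in PICT, 41747 in OMCT and 20510.3 in PCT. Pdgfra stood at 517 in PICT, 1888 in OMCT and 252 in PCT (-1.83), Thy1 at -2.12, S100a4 at 488 in PICT, 1511 in OMCT and 183 in PCT (-1.59) and the mesenchymal factor Prrx1 at 224 in PICT, 633 in OMCT and 144 in PCT (-1.45). Pdgfrb was called at -1.45, with another probe set at 0.32. Apod, a lipid carrier of fibroblasts, was at 6.2 in PICT, under that array's negative control of 8.36, and 182 in OMCT, which made it at least 11.1-fold lower. Smooth muscle genes counted 0 higher and 4 lower of 21 (median -0.16). Of their contractile genes, Acta2 at 191 in PICT, 198 in OMCT and 109.6 in PCT (-0.02) and Tagln at 554 in PICT, 622 in OMCT and 216 in PCT (-0.14) were level. Myh11 stood at 386 in PICT, 285 in OMCT and 459 in PCT (0.45) and was not called, but its other, dimmer probe set gave 1.51. The lower members included the pericyte genes Rgs5 (569.8 in PICT, 1816 in OMCT and 1592 in PCT, -1.64), Abcc9 (-1.9) and Mcam (-1.08). Of 11 periodontal ligament genes 0 were higher and 3 lower, and the defining tendon and ligament genes Scx and Tnmd were dim at 37 and 43.5, and 28.3 and 46.1.

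**Figure D5:**
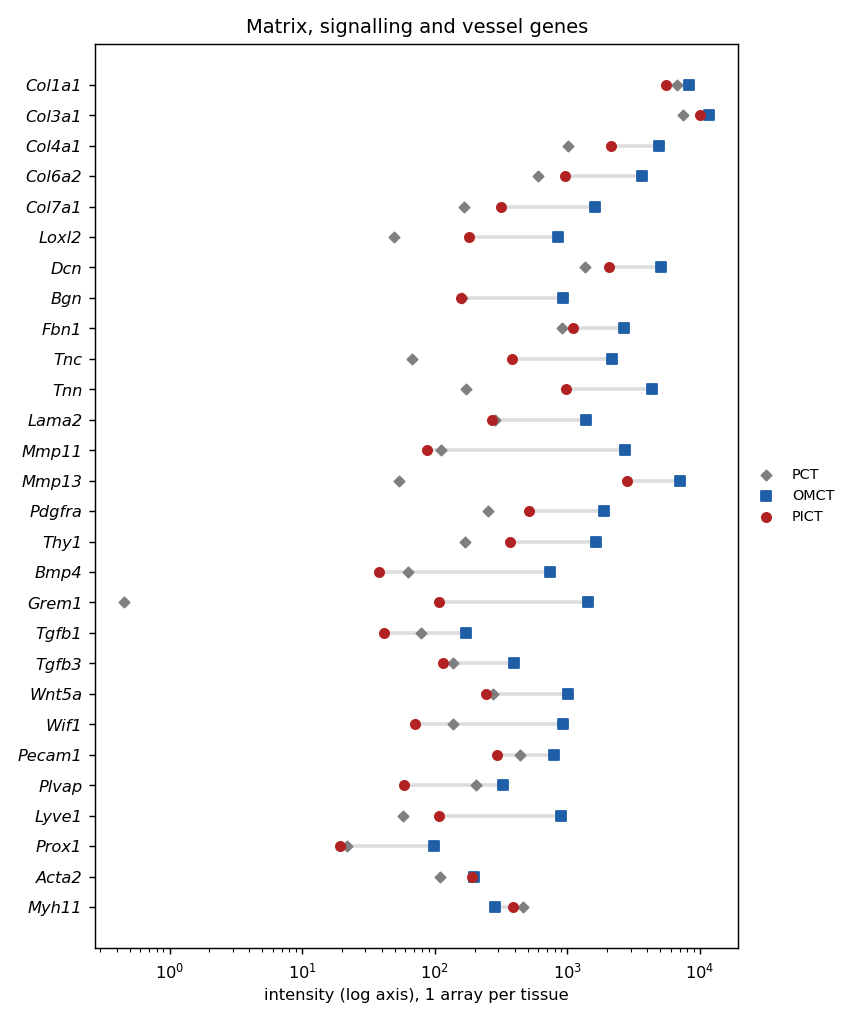
Intensity on a log axis of 28 matrix, signalling and vessel genes on the 3 arrays (PICT red circles, OMCT blue squares, PCT grey diamonds), 1 array per tissue. OMCT lies above PICT for all but Myh11; Acta2 nearly coincides in PICT and OMCT, and Mmp11 and Bmp4 show the widest gaps between PICT and OMCT.

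Some secreted signals that pattern mesenchyme, and some of their inhibitors, were lower in PICT. The BMP and activin list counted 3 higher and 7 lower of 38. Bmp4 stood at 37.6 in PICT, 740.0 in OMCT and 62.5 in PCT (-4.0), while its relatives Bmp2 and Bmp7 were at 469.6 in PICT, 864 in OMCT and 899 in PCT (-0.85) and 124 in PICT, 211 in OMCT and 160.3 in PCT (-0.71) and not called. The activin chain Inhbb was lower at 84 in PICT, 408 in OMCT and 343 in PCT (-2.15). The antagonist Grem1 stood at 108 in PICT, 1435 in OMCT and 0.456 in PCT (-3.61), the antagonist Nbl1 (DAN) at 87 in PICT, 1097 in OMCT and 203 in PCT (-3.51) and Chrd (chordin) at -1.16. The receptor Bmpr1a was at 0.65, and the endothelial receptor Acvrl1 was lower at -1.33. Among targets, Id3 was lower (-1.13), Id1 was at 0.29, and Id2 was higher (1.25, other probe set 0.02). Bambi, a decoy receptor, was higher at 123 in PICT, 33.6 in OMCT and 244 in PCT (1.66), as was Bmp3 (1.36).

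All 3 TGF-beta ligands were lower. Tgfb1 stood at 41.3 in PICT, 173 in OMCT and 78.2 in PCT (-1.84), Tgfb2 at 152 in PICT, 341 in OMCT and 139 in PCT (-1.11) and Tgfb3 at 115 in PICT, 396 in OMCT and 137 in PCT (-1.69), with PICT well under OMCT in each. The list counted 0 higher and 7 lower of 15 (median -0.99), and the endothelial co-receptor Eng was lower at 127 in PICT, 470.4 in OMCT and 144 in PCT (-1.8). Smad3, which carries the signal, was at -0.99, and the target Tgfbi was at -0.1, neither called.

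The Wnt list counted 0 higher and 10 lower of 40 (median -0.39). The ligand Wnt5a stood at 241 in PICT, 1018 in OMCT and 273 in PCT (-2.02), while Wnt4, a ligand of epithelium, was level at 505 in PICT, 477 in OMCT and 725 in PCT (0.1). The enhancer Rspo1 stood at 16.6 in PICT, 131 in OMCT and 15.2 in PCT (-2.45) and the receptor Fzd4 at 125 in PICT, 424 in OMCT and 403 in PCT (-1.68). Inhibitors were among the lowest members, with Wif1 at 70.3 in PICT, 925 in OMCT and 138 in PCT (-3.55), Apcdd1 at 89.7 in PICT, 539 in OMCT and 54.9 in PCT (-2.46) and Dkk3 at 280.4 in PICT, 1386 in OMCT and 155 in PCT (-2.25). Draxin, which antagonises Wnt and guides axons, was at -2.86. The pathway target Axin2 stood at 106 in PICT, 206 in OMCT and 107 in PCT (-0.89), short of the 2-fold rule.

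Growth factors divided by family. Of 47 ligands, receptors and binding proteins 8 were higher and 6 lower (median 0.07). Ligands of the EGF receptor family were among the higher ones, with Ereg (epiregulin) at 94.7 in PICT, 21.9 in OMCT and 16.2 in PCT (1.78), Hbegf at 69.6 in PICT, 16.6 in OMCT and 36.4 in PCT (1.65), Btc (betacellulin) at 1.24 and Areg (amphiregulin) at 1.11. Tgfa, of the same family, was level at 0.16. Nrg1 was called at 1.29, although its 8 probe sets ran from -0.90 to 2.08. Receptors of FGFs went opposite ways, with Fgfr3, of epithelium, at 723 in PICT, 258 in OMCT and 559 in PCT (1.48) and Fgfr1, of mesenchyme, at 449 in PICT, 1602 in OMCT and 481 in PCT (-1.8). Fgf9 was at 1.55 in PICT, below the negative control, and 105 in OMCT, at least 6.62-fold lower. Ntrk2, the receptor of BDNF, stood at 51.9 in PICT, 719.6 in OMCT and 130.1 in PCT (-3.57), but its 5 probe sets ran from -3.57 to 0.47. The ligand Bdnf was higher at 1.23, with a second, dim probe set at 0.36. Igf1 and Pdgfa were at -0.64 and -0.89 and not called, but the other probe sets of Igf1 gave -1.60 and -1.58. The hormone Stc1 (stanniocalcin 1) stood at 68.8 in PICT, 1227 in OMCT and 64.8 in PCT (-3.98), and Dio2, which activates thyroid hormone, at 209.6 in PICT, 3278 in OMCT and 62.5 in PCT (-3.89).

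Transcription factors of jaw mesenchyme and epithelium counted 4 higher and 4 lower of 24. Isl1 stood at 156 in PICT, 14.8 in OMCT and 76.3 in PCT (2.84), Dlx3, a regulator of keratinocytes and bone, at 732 in PICT, 127 in OMCT and 485 in PCT (2.47) and Msx2 at 99 in PICT, 21.8 in OMCT and 93.3 in PCT (1.84). Shox2 stood at 315 in PICT, 788 in OMCT and 136 in PCT (-1.28), and Prrx2 was lower at -2.2, with a second probe set at 0.11. Msx1, Dlx5 and Pax9 were at -0.53, -0.41 and -0.72 and not called. Irx1, a homeobox gene, was at least 6.19-fold lower (5.93, under the negative control, against 97.8).

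Mineral genes did not move as 1 group, with 3 higher and 5 lower of 16. Bglap (osteocalcin) stood at 266 in PICT, 10.1 in OMCT and 434 in PCT (3.9), OMCT being the low array. Alpl (tissue alkaline phosphatase) stood at 79.4 in PICT, 462 in OMCT and 128 in PCT (-2.4), Ibsp (bone sialoprotein) at 300.3 in PICT, 997 in OMCT and 232 in PCT (-1.68) and Pth1r (the parathyroid hormone receptor) at 75.5 in PICT, 255 in OMCT and 59.9 in PCT (-1.63), with OMCT the high array. Osteoclast genes counted 2 higher and 1 lower of 13. Ctsk (cathepsin K) and Acp5 (tartrate-resistant phosphatase) were at -0.85 and -0.45 and not called. Tnfsf11 (RANKL) was dim at 11.1 and 12.7 in PICT and OMCT, and its decoy Tnfrsf11b (osteoprotegerin) was lower at 124 in PICT, 351 in OMCT and 25.5 in PCT (-1.42).

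Many vessel genes were lower beside the implant. Of 29 blood endothelial genes 1 was higher and 12 were lower (median -0.88), with summed intensities of 6581 in PICT, 12148 in OMCT and 6389.5 in PCT. Pecam1, the junction molecule CD31, stood at 295 in PICT, 795 in OMCT and 437 in PCT (-1.38), Vwf at 114 in PICT, 322 in OMCT and 183 in PCT (-1.41), Plvap, of fenestrated capillaries, at 59 in PICT, 329 in OMCT and 204 in PCT (-2.3) and the water channel Aqp1 at 196 in PICT, 897 in OMCT and 389 in PCT (-2.13). Esm1 (endocan, a proteoglycan of sprouting endothelium) stood at 17.1 in PICT, 377 in OMCT and 28.5 in PCT (-3.89). The higher member was Vcam1, the adhesion molecule of inflamed endothelium and other cells, at 125 in PICT, 29.5 in OMCT and 33.3 in PCT (1.83). Lymphatic genes counted 0 higher and 6 lower of 11 (median -1.22). Prox1, their master regulator, stood at 19.2 in PICT, 99.1 in OMCT and 21.6 in PCT (-1.93), Mmrn1 at 120.3 in PICT, 832 in OMCT and 85.2 in PCT (-2.68), and Lyve1 and Flt4 (the VEGF-C receptor) differed by -2.96 and -2.25. Pdpn, which keratinocytes and fibroblasts also carry, was at -0.52. Ackr4, a scavenger of CCL19 and CCL21, stood at 48.8 in PICT, 659.9 in OMCT and 57.2 in PCT (-3.52). Nerve genes were dim, with 0 higher and 1 lower of 15 (6.67%, against 4.46% over all genes). The lower one was Gap43, of growing axons, at 19.5 in PICT, 183 in OMCT and 26.6 in PCT (-2.75, other probe set 0.11), and the Schwann cell factor Sox10 stood at 3.2 and 36.8 in PICT and OMCT.

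Markers of other tissues that a dissection could include were mostly dim. Lists of muscle, salivary gland, fat, red cells, pigment cells, cartilage and tooth-forming cells held 58 measured genes, with 3 higher, 1 lower and a median of 0.04. Myh1, a muscle myosin, stood at 3339 in PICT, 1620.4 in OMCT and 2681 in PCT (1.06) while Acta1 and Ckm, defining muscle genes, were near background at 5.28 and 3.89, and 7.39 and 18.4. Hbb, of red cells, stood at 415 in PICT, 129 in OMCT and 765 in PCT (1.64). The salivary genes Amy1 and Muc5b were at 1.97 and 2.87, and 8.79 and 10.6.

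List medians can also be set against those of fibroblast and of basal keratinocyte genes. Relative to the fibroblast median of -0.51, fibrillar collagens lay at -0.03, elastic fibre genes at -0.18 and the BMP list at 0.3. Blood endothelium lay at -0.37, TGF-beta at -0.48, lymphatic endothelium at -0.7 and small leucine-rich proteoglycans at -0.76, all below the fibroblast list. The interferon list lay 1.01 above it, macrophages 0.26 and CXC chemokines 1.5. The fibroblast list itself holds Col1a1 and Col1a2, so it shares members with the fibrillar collagens set against it. Relative to the basal keratinocyte median of 0.65, the upper-layer list lay 2.83 higher, desmosomes 0.37 and IL-1 and IL-36 genes 0.44. The interferon list lay at -0.15 against the same reference. How much of any difference came from the share of epithelium in the dissected tissue was not tested, and with 1 array a tissue the implant and the cut of the dissection cannot be told apart.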

How the data were processed

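The values were intensities, linear in scale and read per probe set of a rat GeneChip, used as the authors deposited them. Labelling with the GeneChip 3'IVT Express kit, per the labels' protocols, reads mainly the 3' end of transcripts. How probes were summarised and arrays scaled is not stated in the labels or the file. Gene symbols came from the platform annotation of 2016. Of 31099 probe sets, 20832 had 1 symbol, 436 several and 9831 none, and the last 2 kinds were left out of the gene comparison. Values were log2(intensity + 8.56), 8.56 being the 20th percentile of all values, centred on each array's median. No test was run, since the number of arrays limits the precision and there is no spread between animals. Named genes were Lbp, Sod3, the 25 largest called differences in each direction, the 6 largest called members of each list in each direction, and key members of each list. The genes compared, the 68 lists and the rules were chosen with earlier results of these data known. The calculation was checked on simulated data. Tools were Python 3.11.15 with numpy 2.4.6, pandas 2.3.3 and statsmodels 0.14.6. In all, 10 alternatives were tried (pseudocounts of 1 and of the median of all values, scalings, filters and choices of probe set).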

Additional observations from a re-analysis of the deposited data

How the results depend on the processing

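No paired analysis was possible because each tissue had 1 array and the labels give no replicate numbers. Of 4480 values of named genes under the 10 alternatives, 4286 moved by less than the SD between probe sets, as did 675 of 680 list medians. These totals include values that could not move. The filter alternatives change only the calls, so the 448 named-gene values under each, and the list medians, were fixed. Leaving out the centring shifted every difference by the same -0.02. With the pseudocount at the median of all values, 355 genes were higher and 379 lower, neutrophil genes higher numbered 5, and medians were 2.81 for upper-layer epithelium, -0.66 for small leucine-rich proteoglycans, -0.22 for nerve and 0.47 for CXC chemokines, since a larger pseudocount shrinks the differences of dim genes. With the brighter array required to reach its 75th percentile, 369 were higher, 414 lower and 7 interferon genes higher, fewer genes being eligible. With the mean of all probe sets, 4 CXC genes were higher. With a pseudocount of 1 the red cell median was 1.70. Direction reversed for Il1rl1 (-0.034) and Lama4 (0.047) with the mean of probe sets and for Cry2 (-0.036) with the probe set brightest over PICT and OMCT alone. The share of called genes that were higher was 48.2%, and 46.17 to 51.16% over the alternatives. All of these rest on 1 array a tissue, so the spread between animals is unknown.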

Other observations

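Probe sets without exactly 1 gene symbol were outside the comparison of genes. Of 10216 such probe sets, 357 (3.49%) were higher in PICT and 237 (2.32%) lower by the same rule, with differences reaching 8.82 and -4.78. Among the 25 largest differences in each direction, 17 of the higher genes stood in epithelial lists and 8 in no list, while 10 of the lower genes stood in stromal lists and 14 in none. Lower genes in no list included Shc4, an adaptor of receptor tyrosine kinases (16 in PICT, 303 in OMCT and 103 in PCT), Plxdc1, an endothelial surface protein (53.4, 560 and 89.5), and Wfdc1, a small secreted protein (38.6, 411 and 33.8), and Gsta3l1, named as a glutathione transferase, stood at 165, 1276 and 10.4.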
